A study of Homo sapiens with 4 samples.

Results

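PTMA, PTMS, SSRP1, HMGN1 and H2AFY encode the prothymosins and 3 chromatin proteins, and their RNA processing was followed through every listed splicing event of these 5 genes. The events were found by gene symbol in 5 deposited splicing tables, 1 for each class of event: alternative 3' sites, alternative 5' sites, mutually exclusive exons, retained introns and skipped exons. The tables listed 471 events in 353 genes, and 8 of the 471 belonged to these genes. Among alternative 3' sites 3 of 57 events were theirs and among retained introns 5 of 264, while the 34 alternative 5' site, 15 mutually exclusive exon and 101 skipped exon events held none. The genes were selected on their inclusion and skipping counts in these same libraries, with the levels of OE and WT in view, so those levels are described here without a test.

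The RNA came from RKO, an established human colorectal cancer cell line, and cells of the wild type genotype (WT) were set beside cells that overexpress ZCCHC7 (OE). ZCCHC7 is a zinc-knuckle protein that works with the nuclear RNA exosome. For each genotype there was 1 input library and 1 immunoprecipitate (IP) library, 4 libraries in all, and no replicate. The labels do not say how ZCCHC7 was expressed, whether the OE cells were 1 clone, or whether the WT cells carried an empty vector. The antibody of the IP is given differently in different labels, as one against ZCCHC7 and as antibodies against SRSF1 and m6A, so the libraries are called input and IP only. By its title the study is concerned with the mechanism and the targets of ZCCHC7 in colorectal cancer. The tables name the comparison as OE against WT, and the assignment of the sample columns to OE and WT rests on that name alone.

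Each count cell held 2 values joined by a comma for each genotype, and no source says which library gave which value. They are called the first and the second value and are kept apart throughout, then added. Over all 471 events OE had 913 counts in the first values and 1519 in the second, and WT had 3016 and 817. The deeper value was thus the second in OE and the first in WT, and WT over OE was 3.3 (95% interval 3.07 to 3.56) in the first values and 0.538 (0.493 to 0.586) in the second. Setting first against first and second against second holds only if OE and WT list their libraries in the same order. None of 7 epithelial marker genes and none of 7 markers of blood, stromal and endothelial cells had a listed event, and the splicing tables give no gene levels, so the cell type could not be checked on these values.

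Prothymosin alpha and parathymosin are small, very acidic nuclear proteins that bind histones, linker histone H1 among them, and are abundant in dividing cells. SSRP1 is a subunit of FACT, the histone chaperone that takes nucleosomes apart and rebuilds them as polymerases pass. HMGN1 binds nucleosomes and loosens chromatin, and H2AFY, now named MACROH2A1, encodes the histone variant macroH2A1. An alternative 3' site lets the spliceosome join an upstream exon to either of 2 acceptors, and the stretch between the acceptors is kept or removed. A retained intron stays in the RNA between its flanking exons and usually interrupts the reading frame.

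Inclusion counts support the longer form of an event and skipping counts the shorter form. In all 8 events the authors' inclusion form was longer than the skipping form of 149 bases by exactly the alternative stretch, so an inclusion count can come from anywhere within the stretch and not from its edges alone. The inclusion level is the inclusion count divided by its form length, as a share of that quotient plus the same quotient for skipping. The raw share is inclusion counts over all counts with no such correction. Intervals are exact 95% binomial (Clopper-Pearson) intervals for shares, and the limit of a share of 0 is the share that 3 counts would give. That limit is approximate, and the exact upper bound is given beside it. Intervals and limits cover counting error only, because without a replicate the variation between libraries is not known. They also take reads as independent, which sequenced reads without molecular identifiers need not be, so they can be too narrow.

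**Figure D1:**
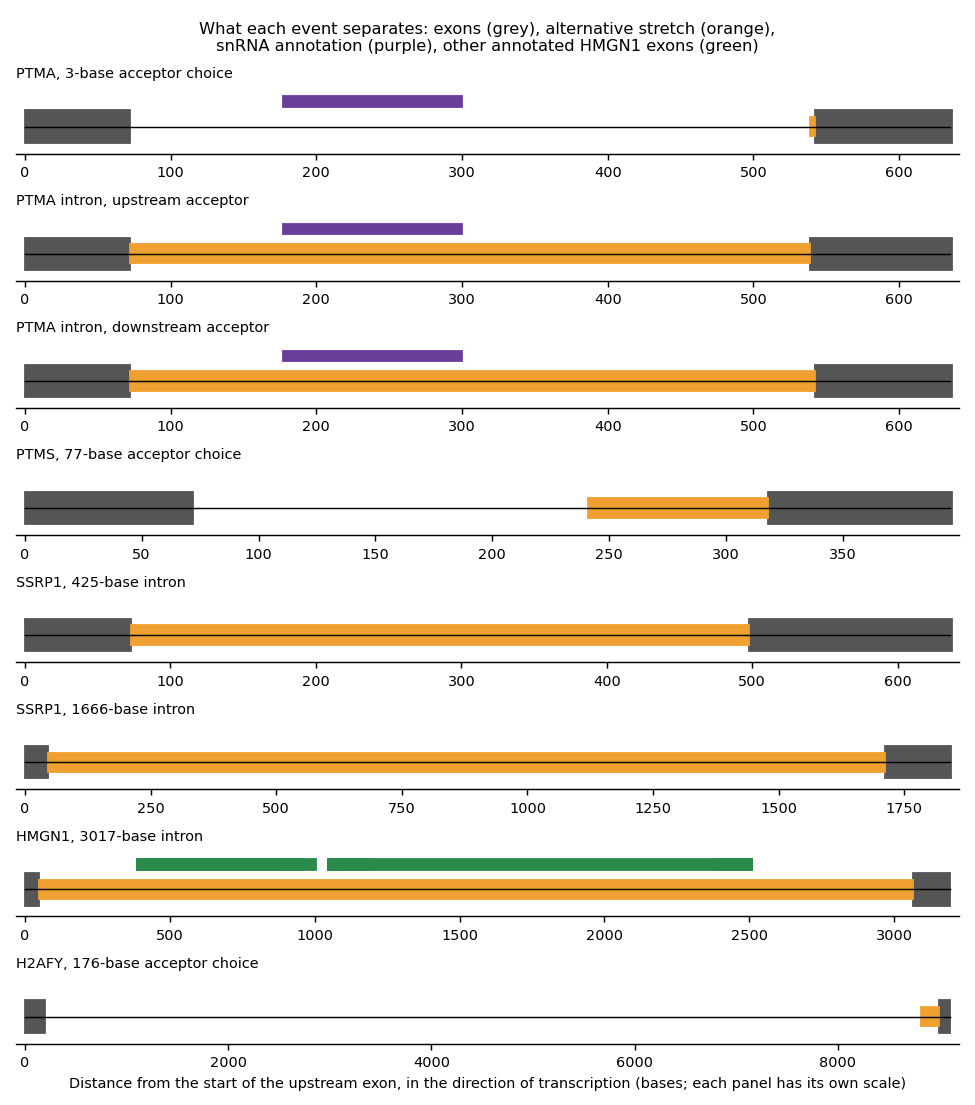
Each panel draws 1 of the 8 events to its own scale, in bases from the start of the upstream exon in the direction of transcription, with the flanking exons in grey and the alternative stretch in orange. The stretch runs from 3 bases in PTMA to 3017 bases in HMGN1, an annotated snRNA of 123 bases (purple) lies inside the PTMA intron, and other annotated HMGN1 exons (green) fill much of the HMGN1 intron.

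PTMA carried 3 of the 8 events, and all 3 lie at the same intron. PTMA (ENSG00000187514) lies on the plus strand of chromosome 2 from 231706895 to 231713541 in the files' coordinates, whose build is not given in the sources used here, and has 12 annotated transcripts. The intron starts at 231711420 and is followed by 2 acceptors 3 bases apart. With the upstream acceptor the next exon begins at 231711887 and keeps bases 231711887 to 231711889, and with the downstream acceptor these 3 bases go out with the intron. Both flanking exons are coding, and the 3 bases leave the reading frame unchanged. The upstream acceptor is annotated in PTMA-201 alone, a protein of 111 residues. The downstream acceptor is annotated in 9 transcripts, 5 of them protein coding, and PTMA-202 among these encodes 110 residues, 1 fewer. Between PTMA-201 and PTMA-202 the annotated proteins thus differ by 1 residue in length. PTMA-203, PTMA-204 and PTMA-205, also with the downstream acceptor, encode 131, 107 and 136 residues. No protein sequences were compared.

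At the acceptor choice, OE had 6 inclusion and 30 skipping counts in the first value and no count in the second. WT had 19 inclusion and 101 skipping counts in the first value and 1 and 4 in the second. With the values added, the inclusion level was 16.4% in OE (interval 6.25 to 32.4) and 15.7% in WT (9.88 to 23.3). The difference of 0.658 percentage points had an interval of -12.0 to 17.7, so a difference of either sign within those bounds could not be told from none at this depth. The upstream acceptor thus had a raw share of 16.7% of the spliced counts in OE and 16% in WT. With 161 counts this event was the third deepest of the 471. The authors' deposited table gave levels of 0.164 in OE and of 0.156 and 0.197 in WT, a difference of -0.012 and p = 1.

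The other PTMA events ask whether the same intron was retained, measured once against splicing to the upstream acceptor and once against splicing to the downstream one. The retained form is annotated in PTMA-212, a noncoding transcript of the retained intron class. Against the upstream acceptor (an intron of 467 bases, 231711420 to 231711886), OE had 0 intron and 6 spliced counts in the first value and 6 and 0 in the second. WT had 2 and 19 in the first value and 0 and 1 in the second. Against the downstream acceptor (470 bases, ending at 231711889), OE had 0 and 30 in the first value and 6 and 0 in the second, and WT had 2 and 101, then 0 and 4. In OE the first value thus held spliced counts only and the second value intron counts only.

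All 18 pairs of counts that these 3 events should share were equal, so the events rest on 3 sets of counts: intron, upstream acceptor and downstream acceptor. The OE first value held 0 intron, 6 upstream and 30 downstream counts of 36, and the WT first value held 2, 19 and 101 of 122. The downstream acceptor made up 83.3% (67.2 to 93.6) of the OE first value and 82.8% (74.9 to 89.0) of the WT first value. The intron made up 0 of 36 counts in OE, which allows a share of up to 8.33% (exact upper bound 9.74%), and 1.64% (0.199 to 5.8) in WT. In the first values the 3 forms therefore stood in close to the same proportions in both genotypes. The second values were far thinner and unlike each other. All 6 OE counts were of the intron (54.1 to 100%). The 5 WT counts were 1 upstream and 4 downstream, with 0 intron counts, which allows up to 60% (exact upper bound 52.2%).

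**Figure D2:**
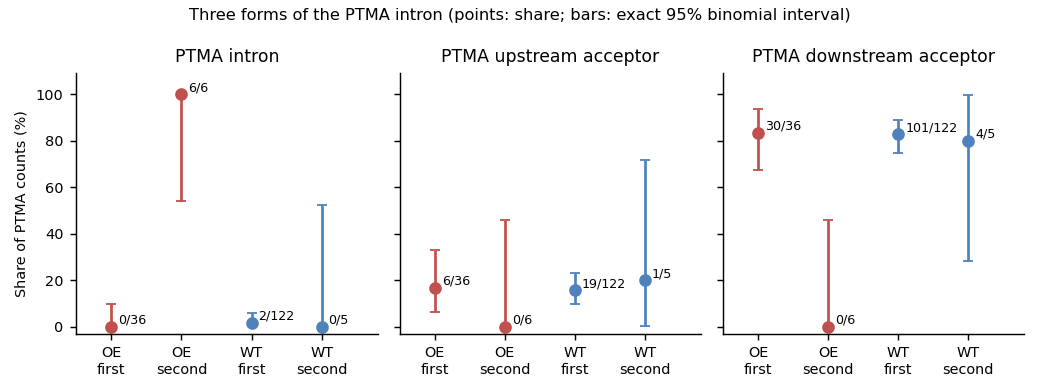
Share of PTMA counts (percent, vertical axis) that fell in the intron, at the upstream acceptor and at the downstream acceptor, for the first and second value of OE (red) and WT (blue), with exact 95% binomial bars and counts over totals beside the points. The first values of OE and WT lie close together in all 3 forms, and the OE second value stands apart with 6 of 6 counts in the intron.

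With the values added, the retained PTMA intron had a level of 19.5% in OE (6.07 to 47.5) and 2.36% in WT (0.273 to 9.06) against the upstream acceptor, a difference of 17.1 points (2.13 to 45.2). Against the downstream acceptor the levels were 4.59% (1.61 to 10.5) and 0.456% (0.0548 to 1.67), a difference of 4.14 points (0.918 to 10.1). Both differences came from the same 6 intron counts in the OE second value. In the first values alone the difference was -2.48 points for the upstream and -0.474 points for the downstream acceptor, so WT was the higher there. In the second values alone it was 100 points for each, on 6 counts in OE against 1 and 4 in WT. The authors' deposited table, which averages the levels of the 2 values, gave differences of 0.487 and 0.497 with p of 0.535 and 0.611.

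An annotated snRNA gene lies inside this intron on the same strand, at 231711525 to 231711647. It carries the Rfam name of the U4 spliceosomal RNA family (RF00015) and covers 123 of the intron's bases. Reads of such an RNA and reads of the retained intron cannot be told apart in these counts. The annotation also lists 7 named PTMA pseudogenes, near copies of the exon sequence, so the spliced counts are uncertain to the extent that reads were shared with them.

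PTMS held the deepest event of all 471, with 885 counts, nearly all of them of 1 form. PTMS (ENSG00000159335, plus strand of chromosome 12, 6765516 to 6770952) has 7 annotated transcripts and encodes parathymosin, the close relative of prothymosin alpha. Its acceptors lie 77 bases apart, and the longer exon at 6769844 to 6769999 keeps the stretch 6769844 to 6769920. The 77 bases are not a multiple of 3, so the 2 acceptors put the downstream coding sequence in different frames. The upstream acceptor is annotated in 3 transcripts, of which PTMS-202 encodes 104 residues. An annotated PTMS exon of 54 bases (6769844 to 6769897) starts at this acceptor and ends within the stretch. Reads within that exon cannot be assigned to the longer exon alone. The downstream acceptor is annotated in 4, of which PTMS-201 and PTMS-207 encode 102 residues.

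OE had 4 inclusion and 209 skipping counts in the first value and 0 and 5 in the second, and WT had 3 and 654, then 0 and 10. The longer exon was thus rare in the first values and not seen in the second. The zeros of the second values allow shares of up to 60% in OE and 30% in WT (exact upper bounds 52.2% and 30.8%). The added inclusion level was 1.22% in OE (0.332 to 3.1) and 0.297% in WT (0.0612 to 0.867). Their difference of 0.920 points had an interval of -0.133 to 2.82, which covers 0. The depth bounds the longer parathymosin exon at a raw share of 4.63% in OE and 1.31% in WT. In the authors' deposited table the difference was 0.005 with p = 1.

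PTMS and PTMA took nearly equal parts of the first values in both genotypes. With the repeated PTMA counts taken once, PTMS made up 24.3% (21.5 to 27.3) of the 877 OE and 22.7% (21.2 to 24.3) of the 2894 WT first-value counts. PTMA made up 4.1% (2.89 to 5.64) and 4.22% (3.51 to 5.01). In the second values PTMS stood at 0.33% of 1513 counts in OE and 1.23% of 812 in WT, and PTMA at 0.397% and 0.616%. WT over OE in the first values was 3.08 (2.64 to 3.62) at the PTMS acceptors and 3.33 (2.28 to 4.98) at the PTMA acceptors, and it was 3.37 (3.08 to 3.69) over the events of all other genes. Both prothymosin intervals overlap that of the other genes. Since the prothymosins were selected for their deep counts, their part of the counts is a description. In bulk RNA, fewer cells making a transcript and less of it per cell cannot be told apart.

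**Figure D3:**
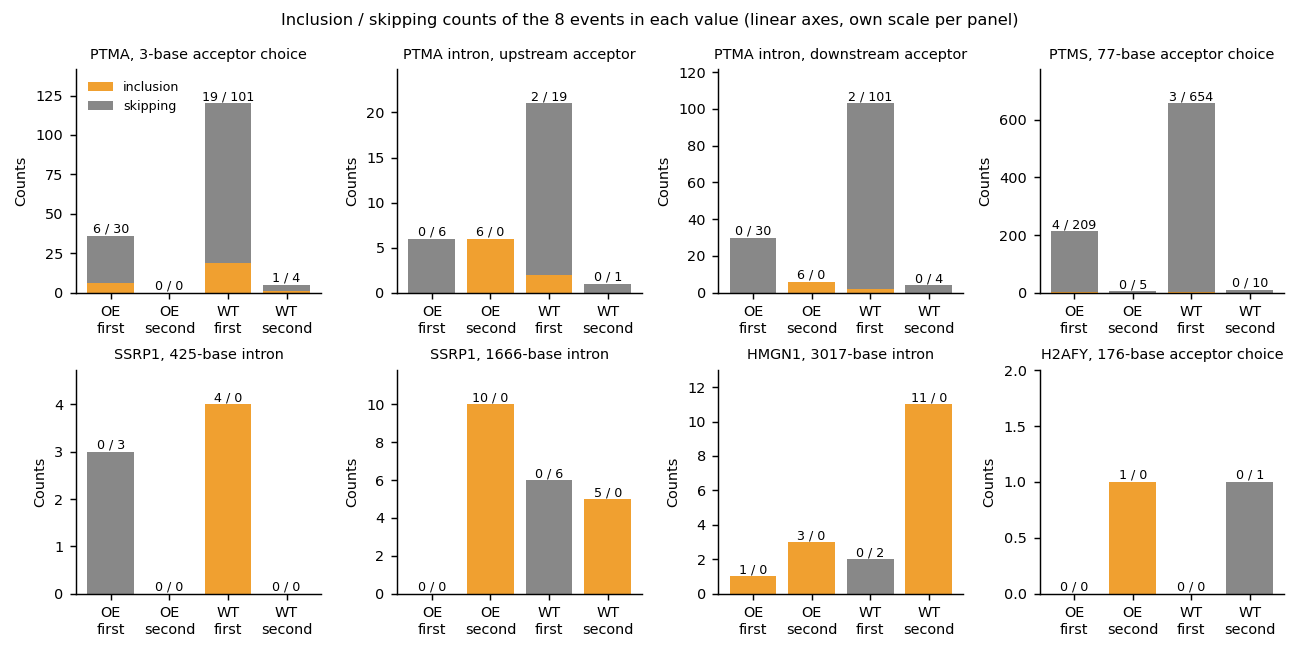
Inclusion (orange) and skipping (grey) counts of the 8 events in the first and second values of OE and WT, on linear axes that differ between panels, with inclusion / skipping printed over each bar. PTMS reaches 657 counts in the WT first value, while the SSRP1, HMGN1 and H2AFY panels top out at 11 counts or fewer.

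SSRP1 had 2 retained-intron events, with the higher level in OE in one and in WT in the other. SSRP1 (ENSG00000149136, minus strand of chromosome 11, 57325985 to 57335877) has 5 annotated transcripts. SSRP1-201 encodes the protein of 709 residues and splices out both introns, whereas SSRP1-202, a noncoding transcript of the retained intron class, keeps both. The longer intron, of 1666 bases (57328427 to 57330092), lies between exons 12 and 13 of SSRP1-201 and within exon 8 of SSRP1-202. The shorter, of 425 bases (57330430 to 57330854), lies between exons 10 and 11 of SSRP1-201 and within exon 7 of SSRP1-202. Coding exons flank both.

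In the longer SSRP1 intron OE had no count in the first value and 10 intron and 0 spliced counts in the second. WT had 0 intron and 6 spliced counts in the first value and 5 and 0 in the second. Every first-value count was thus spliced and every second-value count was of the intron, in whichever genotype it was measured. The added level was 100% in OE (15.5 to 100) and 6.4% in WT (1.62 to 21.2), a difference of 93.6 points with an interval of 7.85 to 98.4. Without the length correction the raw shares were 100% (69.2 to 100) and 45.5% (16.7 to 76.6), and these intervals overlap. In the second values, where alone both genotypes had counts, the level was 100% in each. The authors' deposited table gave a difference of 0.5 with p = 1.

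The shorter SSRP1 intron had 0 intron and 3 spliced counts in OE and 4 intron and 0 spliced counts in WT, all in the first values. Here the level was 100% in WT (14.6 to 100) and 0% in OE, with an exact upper bound of 38.6%, and these intervals overlap. With 7 counts the event was below the minimum of 10 counts in each genotype that was asked of a comparison, and the authors' deposited table gave a difference of -1 with p = 1. An annotated exon of 9 bases of SSRP1-205 lies inside this intron. The 2 introns are kept in the same annotated transcript, but OE had the higher level in the longer intron with values added and WT in the shorter. Intron counts lay in the second values for the longer intron and in the WT first value for the shorter.

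HMGN1 had 1 event, the retention of an intron of 3017 bases (39345275 to 39348291). HMGN1 (ENSG00000205581, minus strand of chromosome 21, 39342315 to 39349647) has 20 annotated transcripts, and HMGN1-216 alone keeps the whole intron. The spliced form is annotated in HMGN1-202, HMGN1-203 and HMGN1-204, which encode 116, 90 and 100 residues, and in the noncoding HMGN1-210. OE had 1 intron and 0 spliced counts in the first value and 3 and 0 in the second. WT had 0 and 2 in the first value and 11 and 0 in the second. The added levels were 100% in OE (3.01 to 100) and 20.6% in WT (5.35 to 70.6), with 4 counts in OE, below the minimum.

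The authors' deposited table gave HMGN1 p = 0.00382 and a false discovery rate of 0.411, with a difference of 0.5. It was 1 of 5 events with p under 0.05 in the authors' deposited table, 3 of them retained introns, while 459 of the 471 events had p = 1. WT had the greater number of HMGN1 intron counts, 11 against 4, although its level was the lower of the pair. The 2 spliced WT counts in the first value set that level. Inside the intron the annotation places 8 exons of other HMGN1 transcripts, of 46 to 1463 bases, and reads of these exons cannot be told apart from reads of the retained intron. HMGN1 also has 31 named pseudogenes in the annotation, with which reads of its exons can be shared.

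H2AFY had the thinnest event, with 1 inclusion count in the OE second value and 1 skipping count in the WT second value. H2AFY (ENSG00000113648, minus strand of chromosome 5, 135333900 to 135399914) has 20 annotated transcripts. Its event is an acceptor choice that adds 176 bases (135360605 to 135360780) to an exon, not a multiple of 3. The longer exon is annotated in H2AFY-210 alone, a transcript of the nonsense-mediated decay class with a reading frame of 165 residues, and the shorter in H2AFY-201, which encodes 371 residues, and in 4 noncoding transcripts. A single count on each side gives no usable level. The authors' deposited table printed a difference of 1 with p = 1.

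Intron counts per 1000 bases of intron put the 4 introns of these genes on 1 scale. With values added, the PTMA intron had 12.8 in OE (4.68 to 27.8) and 4.26 in WT (0.515 to 15.4). The longer SSRP1 intron had 6 (2.88 to 11.0) and 3 (0.974 to 7), and the shorter 0 and 9.41 (2.56 to 24.1). The HMGN1 intron had 1.33 (0.361 to 3.39) in OE and 3.65 (1.82 to 6.52) in WT. OE was the higher in the PTMA and the longer SSRP1 intron and WT in the other two, and the intervals of OE and WT overlapped in each of the 4. These densities carry no correction for depth, which differed between genotypes in opposite directions in the first and the second values.

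The HMGN1 and longer SSRP1 introns are long beside the others in the retained-intron table. The 258 other introns, each taken once, had a median length of 246 bases and a range of 67 to 4692. Only 4 of them were longer than the HMGN1 intron and 13 longer than the 1666-base SSRP1 intron. The length correction weighs most on such introns: the SSRP1 raw share of 45.5% in WT corresponds to a level of 6.4%.

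Of the 8 events, 5 reached 10 counts in each genotype with values added: both acceptor choices of the prothymosins, both PTMA intron events and the longer SSRP1 intron. OE had the higher level in all 5, and in 2 of them, the SSRP1 intron and the PTMA intron against the upstream acceptor, by at least 10 percentage points. Over all 32 listed events with enough counts, 16 (50%) were at least 10 points higher in OE and 4 (12.5%) at least 10 points lower, and 25 had the higher level in OE. The median difference was 4.14 points in the 5 and 10.3 points in the 32. The 3 PTMA events among the 5 share their counts, as given above, and are not separate measurements. Intervals of the raw share lay apart with OE higher in 6 of the 32 (18.8%), and in none of the 5. In the first values alone 15 events had enough counts, with 2 (13.3%) higher and 2 (13.3%) lower by 10 points, and 3 of the 15 belonged to the prothymosins, none of them past 10 points. In the second values 5 events had enough counts, 1 (20%) higher and 2 (40%) lower, and none was of these genes.

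**Figure D4:**
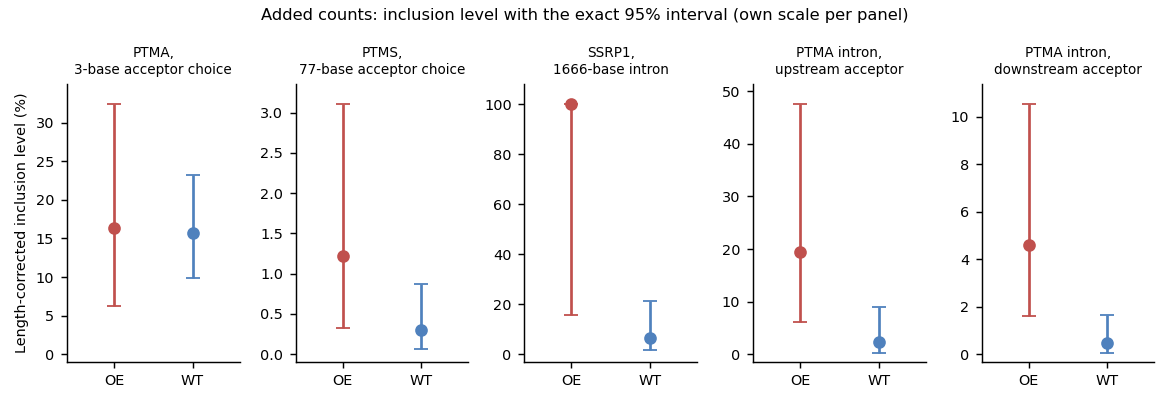
Length-corrected inclusion level (percent, vertical axes that differ between panels) in OE (red) and WT (blue) with values added, for the 5 events with at least 10 counts in each genotype, with exact 95% intervals. The points of the PTMA acceptor choice lie at 16.4% and 15.7%, and the SSRP1 points at 100% and 6.4%, the OE bar reaching down to 15.5%.

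The 4 introns of PTMA, SSRP1 and HMGN1 were pooled, each taken once. Spliced counts then lay almost wholly in the first values and intron counts mostly in the second, in both genotypes. Different genes supplied these counts: PTMA gave 30 of the 33 spliced counts in OE and 105 of the 113 in WT. The WT second-value intron counts were 11 of HMGN1 and 5 of the longer SSRP1 intron. In WT the PTMA and shorter SSRP1 introns had intron counts in the first value only. The second value, over the pooled introns, is given next. The second value held 19 of 20 intron counts in OE (95%, 75.1 to 99.9) and 16 of 22 in WT (72.7%, 49.8 to 89.3). It held 0 of 33 spliced counts in OE (an upper bound of 10.6%) and 4 of 113 in WT (3.54%, 0.973 to 8.82). For PTMA these are the counts spliced to the downstream acceptor, without the 6 in OE and 20 in WT at the upstream one. In the 258 introns of other genes the second value held 89.9% of intron counts in OE and 58.8% in WT, but also 51.8% and 21.3% of spliced counts. The raw intron share of the 4 introns was 2.94% in the first and 100% in the second OE value, and 5.22% and 80% in the WT values. In the other introns it was 39% and 84.2% in OE, and 16.9% and 51.8% in WT. Intron and spliced counts within the same value were seen once in the 4 introns, for PTMA in the WT first value. They were uncommon in the other introns too, with 7 of 85 that had counts in the OE first value, 33 of 228 in the OE second, 43 of 200 in the WT first and 17 of 131 in the WT second.

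**Figure D5:**
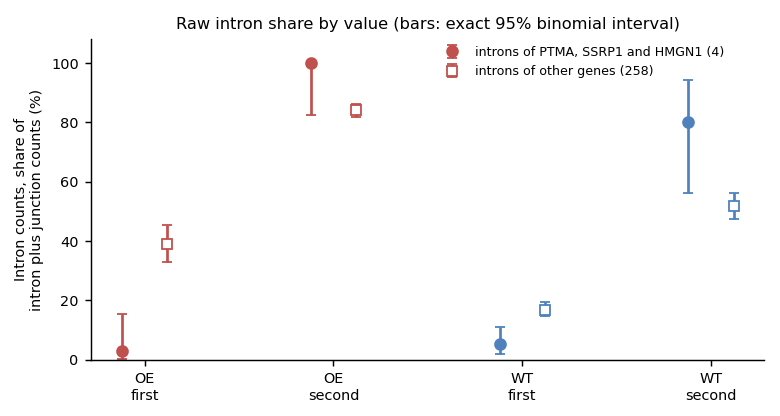
Intron counts as a share of intron plus spliced counts (percent, vertical axis) in the first and second values of OE (red) and WT (blue), for the 4 introns of PTMA, SSRP1 and HMGN1 (filled circles) and 258 introns of other genes (open squares), with exact 95% binomial bars. Pooled, the 4 introns go from 2.94% to 100% in OE and from 5.22% to 80% in WT, but the genes behind the counts differ between the values. In WT, PTMA gave 103 of the 115 counts of the first value and 4 of the 20 of the second, all 4 spliced.

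Pooled over all 8 events, inclusion counts were 11 of 289 (3.81%, 1.92 to 6.71) in the OE first value and 26 of 31 (83.9%, 66.3 to 94.5) in the OE second value. In WT they were 30 of 913 (3.29%, 2.23 to 4.66) and 17 of 37 (45.9%, 29.5 to 63.1). The shares of the OE and WT first values differed by less than counting error. The PTMA events share their counts, so PTMA counts enter this pool more than once. Those of the upstream acceptor enter as inclusion in one event and as skipping in another. The intervals take the copies as separate counts and make no allowance for this. With the PTMA intron entered once, the shares were 3.89% and 80% in OE and 3.14% and 47.2% in WT. In the 463 events of other genes the shares were 53.4% and 80.2% in OE and 36.8% and 45.6% in WT, close to those of the 8 events in the second values but far above them in the first. The 3 acceptor choices had 10 of 249 (4.02%) and 1 of 6 (16.7%, 0.421 to 64.1) in OE. In WT they had 22 of 777 (2.83%) and 1 of 16 (6.25%, 0.158 to 30.2). These intervals overlap, and so few second-value counts cannot tell whether the acceptor choices share the split between the values. Retained introns gave 25 of the 26 OE and 16 of the 17 WT second-value inclusion counts. In OE the same 6 PTMA intron counts stand in both PTMA intron events, and the distinct intron counts were 19. In acceptor choices of other genes the inclusion share was 44% (32.5 to 55.9) and 78.9% (69.0 to 86.8) in OE, and 28.0% and 23.5% in WT. Without PTMA, the shares pooled over the remaining events of the 8 were 2.3% and 73.7% in OE and 1.05% and 59.3% in WT. Over the 4 introns taken once, the second value held 19 of 53 counts in OE and 20 of 135 in WT, so adding the values gives it unequal weight in the genotypes. What set the values apart was not tested.

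By likeness of raw shares over the 4 values, counting only values with at least 3 counts in both events, the longer SSRP1 intron had 3 retained introns at a mean difference of 0 points over 3 values, among 11 that could be compared. They were in DBNL, HMG20B and SRA1. All of these introns held counts of a single kind in each compared value, so a difference of 0 was easily reached on few counts. Such values were common: 181 of 228 introns of other genes had intron counts only in the OE second value. In the WT first value 136 of 200 had spliced counts only. HMG20B, an HMG-box protein of a histone demethylase complex, had 0 intron and 2 spliced counts, then 4 and 0 in OE, and 0 and 10, then 3 and 0 in WT. The PTMA intron against the downstream acceptor was most like another DBNL intron (0.647 points over 3 values), RPLP1 (5.49 points over 4 values) and RPS2 (11.8 points over 3 values), among 18. Against the upstream acceptor it was most like DBNL (3.17 points), RPLP1 (9.84) and NCL (16.3), each over 3 values among 6. RPLP1, a ribosomal stalk protein, had 0 intron and 18 spliced counts, then 4 and 1 in OE, and 0 and 148, then 0 and 3 in WT. PTMS could be compared with RPS9 alone, at 38.7 points, and the PTMA acceptor choice with no event.

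Of 51 other chromatin genes listed for comparison, 3 had an event, 1 each, and none of the 3 reached the minimum of counts, which 32 of the 471 events did. Of 18 histone chaperone genes, RBBP7 and SET had events. RBBP7, a histone-binding subunit of several chromatin complexes, had a retained intron with 2 intron counts in the OE second value, and 1 spliced count in the first and 2 intron counts in the second value of WT. SET, an inhibitor of histone acetylation, had a skipped exon with 1 skipping count in OE and 10 inclusion counts in WT, all in the first values. Of 9 further high mobility group genes, HMGA1 had a retained intron with 1 intron and 2 spliced counts in the OE second value and 1 spliced count in the WT second value. The 9 histone variant and linker histone genes, the 13 heterochromatin and chromatin-modifying genes and the 2 beta thymosins had none. SUPT16H, the partner of SSRP1 in FACT, was among the genes without an event.

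The peak lists gave no second reading of these genes. None of the 57 WT peaks and none of the 30 OE peaks overlapped PTMA, PTMS, SSRP1, HMGN1 or H2AFY by at least 1 base, and none overlapped the 38 named pseudogenes of PTMA and HMGN1. The share of all genes that a peak overlaps was not counted, so this absence is not read as particular to these genes. Each list was called by the authors on 1 IP library against its input.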

How the data were processed

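The authors' deposited splicing tables gave inclusion and skipping counts (2 per genotype), form lengths, inclusion levels, a p-value, an FDR and a level difference per event. The tool that made them, the aligner and the build are not given in the sources used here, nor which library gave which value. The peak lists, made by the authors with MACS 2.1.0.20150420 per the file headers, gave a fold ratio of IP over background per peak. The submitters' processing notes also name FastQC 0.11.5 and HOMER.

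Events were matched by coordinates to the deposited annotation with Python 3.11.15 and pandas 2.3.3, and all 5 genes overlapped RefSeq genes of the same name or synonym. Levels were recomputed from counts and lengths, and 0 of 1884 differed from the deposited levels by more than rounding. Exact intervals used SciPy 1.17.1. Those of a level were run on independent counts drawn from known levels, a setting in which their coverage is guaranteed. The interval of a difference combines both genotypes' intervals by Newcombe's method and was not part of that run. A comparison needed 10 counts in each genotype, and 10 percentage points was the difference counted. Each group held 1 library, so no test between genotypes was made.

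The members, lists and rules were chosen with earlier results of these data known. All events of the 5 genes are named, and beyond them the genes of the chromatin lists with an event and the 3 events most like each member event. No sequences are shown, since no genome or protein table was used here.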

Additional observations from a re-analysis of the deposited data

How the results depend on the processing

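Differences are OE minus WT in percentage points. Of 62 recomputed values, 38 stayed within the counting interval of the value given (counts of events, within 1.5 times) and 24 did not. The 38 include every setting for the number of the 5 genes' events at least 10 points lower in OE, which was 0 throughout. The sign changed in 3 of the 62: the PTMA intron against either acceptor with first values only, and the PTMA acceptor choice, 0.658 with values added and -1.23 with the mean of both levels. The PTMA intron against the upstream acceptor was 17.1 with values added and -2.48 with first values only. It was 100 with second values only, 48.8 with the mean and 40.9 without length correction. Against the downstream acceptor, 4.14 became -0.474, 100 and 49.8 under the same settings and 14.8 without length correction. The longer SSRP1 intron, at 93.6, gave 0 with second values only, 50 with the mean, 54.5 without length correction, and no value with first values only, where OE had no counts. The PTMA acceptor choice gave no value with second values only, for the same reason. Events at least 10 points higher in OE, 16 with values added, were 2 with first values, 1 with second values, 58 at a minimum of 5 counts, 0 at a minimum of 20 and 10 at 20 points. Events at least 10 points lower, 4 with values added, were 2 with first values, 2 with second values, 10 at a minimum of 5, 1 at a minimum of 20 and 2 at 20 points. Of the 5 genes' events, 2 were at least 10 points higher, against 0 with first values, 0 with second values, 0 at a minimum of 20, 1 at 20 points, 1 with shared coordinates taken once, 3 with the mean and 3 without length correction. The WT first-value inclusion share of 3.29% was 1.05% without PTMA. The cause of the difference between the values was not tested. No paired analysis was possible because each group held 1 library. Depth limits all of this: 3 of the 8 events had fewer than 10 counts in a genotype.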
